A study of Danio rerio with 2 samples.

Results

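Ribosomal protein genes were read from the transcript levels of whole zebrafish larvae and chosen by symbol alone: every gene whose symbol starts as rpl, rps, rplp, rpsa, mrpl or mrps names do, leaving out rps27l and the rps6k kinases. Of the 33733 genes measured, 173 matched the pattern, 11 of these were rps6k kinases, 0 carried the symbol rps27l, and 162 were kept. The cytosolic ribosome had 86 of these genes, 49 for the large and 37 for the small subunit. The mitochondrial ribosome had 75, 43 for the large and 32 for the small subunit. Subunits here and below are those of the symbols, and were not checked against the place of each protein in the ribosome. The remaining gene, rps19bp1, codes for a protein that binds a ribosomal protein and was put in no subunit.

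The study compared larvae homozygous for lri25 with wild-type siblings of the same clutches, all AB/TL and 5 days post fertilisation (dpf). The gene that lri25 affects is not named in the labels used here, so no transcript could be used to check the genotype, and no other allele or agent is given for either group. RNA of 20 whole larvae was pooled into 1 library for each genotype. With 1 library per group there is no replicate check, no test was run, and every value describes these pools rather than the genotypes. Levels are FPKM, fragment counts scaled to transcript length and library size. They are compared between genes here, but how length was scaled is not known, so orders of abundance between genes are approximate. The sources used here give no fragment total for either library, so no counting interval is attached.

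A ribosome is built from a large subunit, which forms peptide bonds, and a small subunit, which holds the messenger RNA and reads its codons. Cells carry 2 kinds that share almost no protein genes. Cytosolic ribosomes make nearly all proteins, and their own protein genes are among the most transcribed of any tissue, with an oligopyrimidine start that lets the TOR kinase control their translation as a block. Mitochondrial ribosomes descend from bacterial ones, translate only the few messages of mitochondrial DNA, and have lost ribosomal RNA and gained proteins in animals. All their proteins are coded in the nucleus and imported.

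The ribosomal protein transcripts of both compartments lay close together in the pools. The median cytosolic gene stood at 1756 FPKM in siblings and 1671 FPKM in mutants, and the median mitochondrial gene at 27.8 FPKM and 29.2 FPKM. The cytosolic median was 63.2 times the mitochondrial one in siblings and 57.3 times in mutants. Every gene has the difference log2((mutant FPKM + 1)/(wild-type FPKM + 1)), taken only where a library reached 1 FPKM, which 156 of the 162 genes and 20256 of all genes did. The median difference was -0.08 over 85 cytosolic genes and 0.01 over 70 mitochondrial genes, a gap of 0.09 between the compartments, against -0.01 over all genes. In whole larvae, fewer cells of a type and less RNA per cell cannot be told apart.

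**Figure D1:**
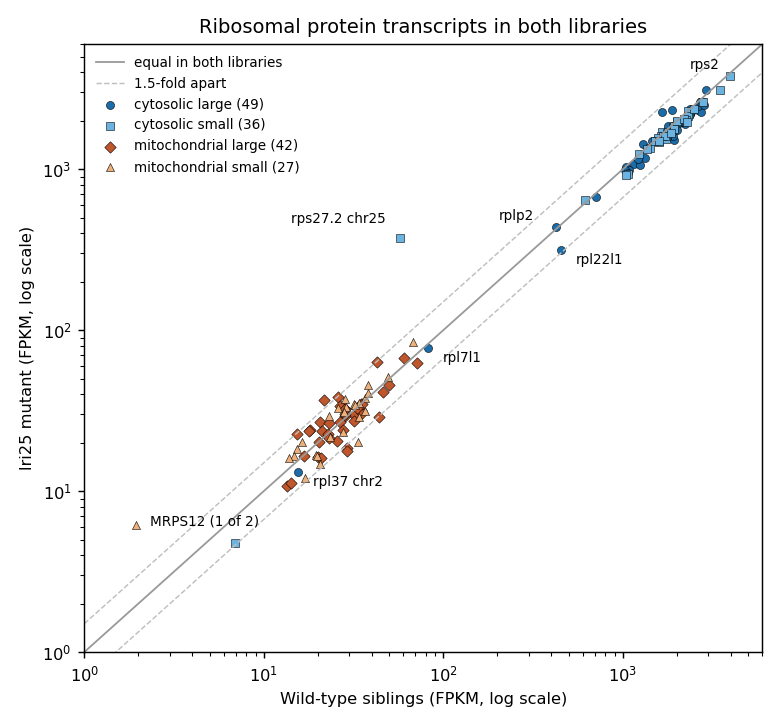
FPKM of each ribosomal protein gene in the wild-type library (horizontal, log scale) and the mutant library (vertical, log scale), by subunit, for the 154 genes with a subunit that are above 0 in both libraries. Cytosolic and mitochondrial genes form separate groups along the line of equal levels, with medians of 1756 and 27.8 FPKM in siblings, and rps27.2 of chromosome 25, at 57.3 and 376 FPKM, stands far above it.

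The small median shift of the cytosolic genes was shared by most of them. Of 85 genes, 72 were lower in the mutant library, or 84.7%, where 51.0% of all genes tested and 49.0% of the 149 other genes at a mean of 500 FPKM or more were lower. Their middle 50% spanned -0.15 to -0.03, whereas the other genes of that level spanned -0.21 to 0.19 around a median of 0.02. For 73 of the 85 genes the difference was within 0.2 of 0. Summed over the 86 genes, FPKM was 148543 in siblings and 141528 in mutants, a ratio of 0.953, and their share of all FPKM was 17.9% and 17.2%. The same ratio over all genes was 0.993.

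Mitochondrial genes were centred near 0 but more scattered. The middle 50% of the 70 genes spanned -0.20 to 0.21, 34 were lower in the mutant library and 36 higher, and 33 were within 0.2 of 0. At least 1.5-fold, 2 were higher and 4 lower, where 13.8% of all genes were that much higher and 16.0% that much lower, and 1 of the 4 is listed at 0 in the mutant. Of the 6529 other genes at 10 to 100 FPKM, 21.0% were at least 1.5-fold apart, and their middle 50% spanned -0.26 to 0.30. The mitochondrial share was 8.57% over all 70 genes. Among those apart were MRPL53 (2 of 2) and MRPS12 (1 of 2), which lie below 10 FPKM. Summed over the 75 mitochondrial genes, FPKM was 1996 in siblings and 2037 in mutants, or 0.240% and 0.247% of all FPKM.

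With subunits taken from the symbols, large and small differed little in the cytosolic compartment and more in the mitochondrial one. Cytosolic large subunit genes had a median difference of -0.08 with 40 of 49 lower, and small subunit genes of -0.07 with 32 of 36 lower, a gap of 0.01. Mitochondrial large subunit genes had a median of -0.02 with 25 of 43 lower, and small subunit genes of 0.10 with 9 of 27 lower, a gap of 0.12. In that compartment the middle 50% of the large subunit, -0.19 to 0.18, lay mostly over that of the small subunit, -0.20 to 0.26. Median levels were 27.5 FPKM and 29.1 FPKM for the large subunit, and 28.0 FPKM and 29.3 FPKM for the small.

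**Figure D2:**
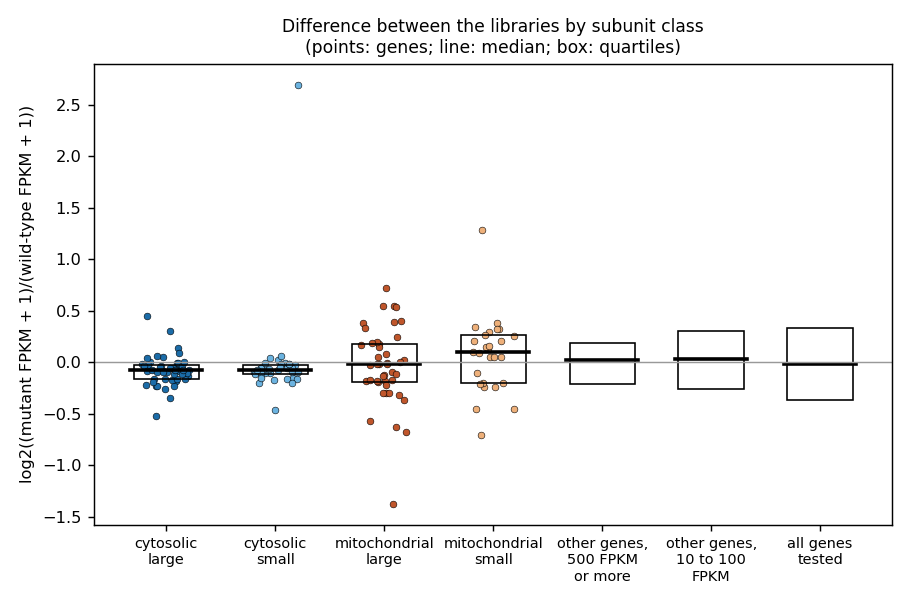
The log2 difference of each ribosomal protein gene by subunit, with the median (line) and the quartiles (box), beside the quartiles of other genes at 500 FPKM or more, at 10 to 100 FPKM, and of all genes tested. The cytosolic boxes are narrow and sit just below 0 at medians of -0.08 and -0.07, and the mitochondrial boxes are wider and straddle 0.

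Cytosolic ribosomal proteins made up a large part of the most abundant genes, but not the very top of the order. Among the 50 most abundant genes they were 15 in siblings and 14 in mutants. Among the 100 most abundant genes of each library, 49 in siblings and 51 in mutants were cytosolic ribosomal protein genes, and among the top 200 there were 78 and 79. The levels followed each other gene by gene, with a Pearson r of 0.973 on the log2 scale over 85 cytosolic genes and 0.895 over 70 mitochondrial genes. These are values across genes of the same 2 libraries, which are not independent replicates, and a wide range of levels raises them.

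In the large cytosolic subunit the most abundant genes by the mean of both libraries, the order used for levels throughout, were the stalk base rplp0, at 2903 FPKM in siblings and 3094 FPKM in mutants, rpl39, a small protein lining the exit tunnel, at 2835 and 2521 FPKM, rpl35 at 2679 and 2605 FPKM, rpl34 at 2609 and 2455 FPKM, and RPL37A at 2632 and 2346 FPKM. At the other end stood rpl38, which in mice is needed for the translation of Hox messages, at 709 and 674 FPKM. Below it were only paralogues of more abundant genes. The small subunit was led by rps2, which lies at the mRNA entry, at 3942 and 3792 FPKM. It was followed by rps20 of the subunit head at 3500 and 3124 FPKM, rps29 at 2803 and 2620 FPKM, rps21 at 2762 and 2620 FPKM, and rps7 at 2508 and 2382 FPKM. Of these 10 abundant genes, only rplp0 was higher in the mutant library.

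Each cytosolic ribosome holds 1 copy of nearly every protein, so the transcripts were also compared per protein, with the FPKM of paralogues added. The 75 proteins then ranged from rpl38 to rps2, a 5.56-fold range in the wild type and 5.62-fold in the mutant. Their coefficient of variation was 28.9% and 29.5%, against 41.3% and 40.8% over single genes. Of the 75 sums, 64 were lower in the mutant library, with a median of -0.07 and a range of -0.35 for rpl10a to 0.45 for rpl11.

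**Figure D3:**
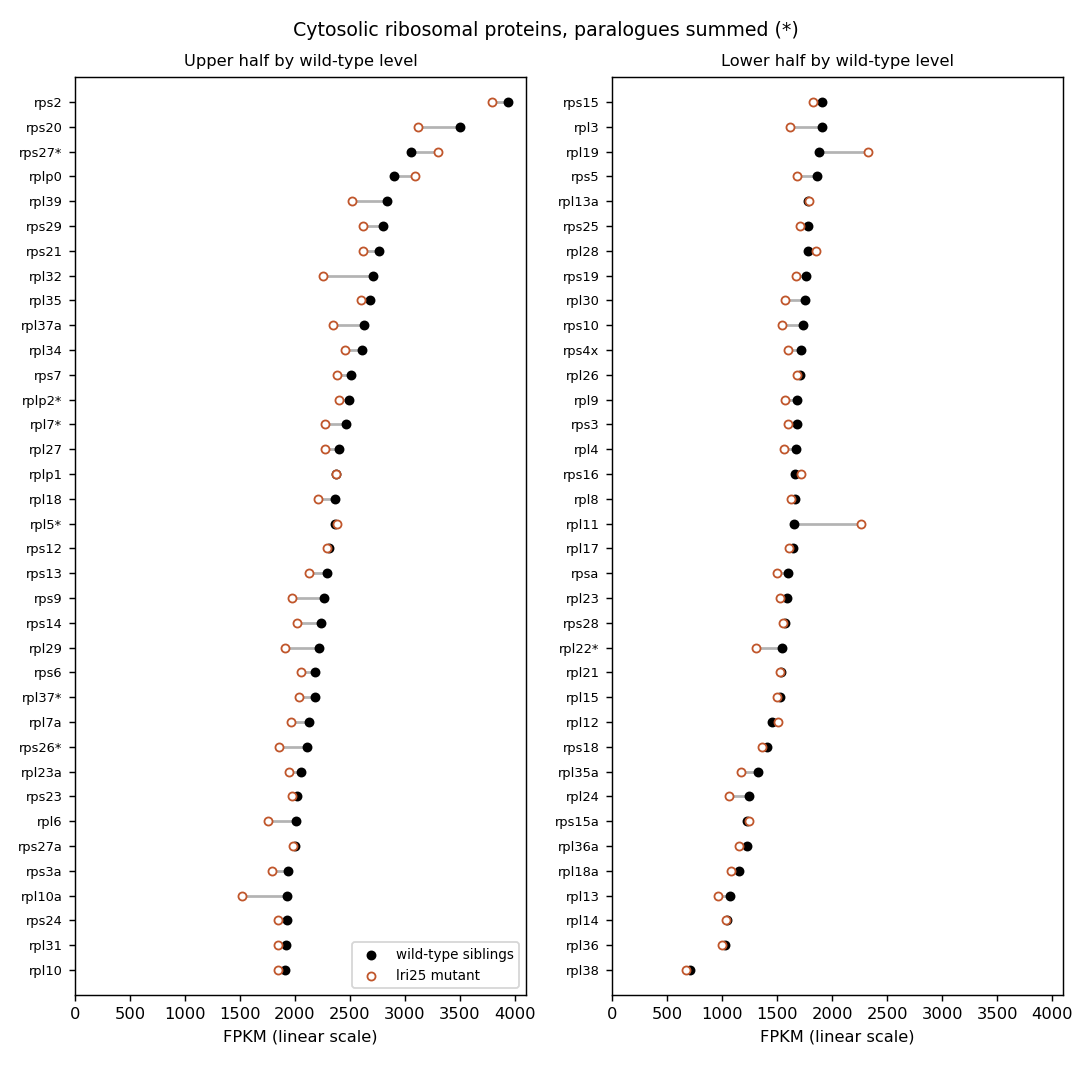
FPKM of 72 of the 75 cytosolic ribosomal proteins in the wild-type (filled) and mutant (open) library on a linear scale, ordered by wild-type level, with paralogues summed where marked by an asterisk. Most open circles lie just left of the filled ones, while rpl11, at 1652 and 2261 FPKM, and rpl19, at 1879 and 2323 FPKM, lie to the right.

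A few cytosolic genes were higher in the mutant library against the trend of the rest. After rps27.2 of chromosome 25, described further on, the highest difference was that of rpl11 (chromosome 19, 45317840 to 45340416 in Zv9), at 1652 FPKM in siblings and 2261 FPKM in mutants, a difference of 0.45. Its locus in the table is shared with another entry, CABZ01086825.1, and reads may have been divided between them. Next came rpl19, which reaches across to the small subunit and lines the exit of the tunnel, at 1879 and 2323 FPKM with a difference of 0.31. Below them came rpl5a at 0.14 and rplp0 at 0.09. The proteins of rpl11 and rpl5 join the 5S ribosomal RNA in a particle that, when ribosome assembly fails, binds Mdm2 and stabilises p53.

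The lowest cytosolic differences included that of rpl22l1, at 454 and 316 FPKM with a difference of -0.52, the lesser form of its protein. Also low was rpl10a, the protein of the mobile stalk beside the tRNA exit, at 1929 and 1518 FPKM with -0.35. The next were rpl32, at 2715 and 2260 FPKM with -0.26, rpl24, which bridges to the small subunit, at 1246 and 1058 FPKM with -0.24, and rpl3, which approaches the peptidyl transferase centre, at 1904 and 1617 FPKM with -0.24. None of these 5 reached a 1.5-fold difference.

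Grouped by place in the ribosome, with groups drawn up after the values were known, the stalk and the 5S particle had medians above 0 over single genes. In the P-stalk, which recruits elongation factors, only rplp2l of 5 genes was lower, at 2065 and 1963 FPKM. Beside rplp0 there, rplp1 was at 2376 and 2377 FPKM, rplp2 at 425 and 438 FPKM, and rpl12, at the foot of the stalk, at 1456 and 1504 FPKM. The group median was 0.04. The 3 genes of the 5S particle had a median of 0.14 but ranged from -0.16 for rpl5b to 0.45 for rpl11. With paralogues summed, the difference was 0.01 for rpl5 and -0.05 for rplp2 with rplp2l. Per protein, the height of the 5S particle therefore rested on rpl11, whose locus is shared.

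Elsewhere in the ribosome the group medians lay near that of the whole compartment. Around the peptide exit tunnel, 9 of 10 genes were lower in the mutant library with a median of -0.07, rpl19 being the exception. At the mRNA entry and decoding site, 4 of 4 were lower with a median of -0.06, and in the head of the small subunit 13 of 15, also with -0.06. The laminin receptor precursor rpsa was at 1597 and 1494 FPKM, and rps27a, which is translated fused to ubiquitin, at 2005 and 1984 FPKM. Some genes were listed for human counterparts linked to Diamond-Blackfan anaemia, an inherited failure of red cell production. Of these 19, 16 were lower, with a median of -0.07, where 84.7% of cytosolic genes and 51.0% of all genes tested were lower. No gene of this list, which lacked the chromosome 25 entry of rps27.2, was 1.5-fold apart, against 29.9% of all genes.

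Paralogous pairs gave the widest spread of levels. Some ribosomal proteins have more than 1 gene, in part from the genome duplication of bony fish, and 29 genes fell into 14 such families across both compartments. Some pairs were of near equal level. The pair rps26, at 1071 and 934 FPKM, and rps26l, at 1036 and 926 FPKM, held 50.8% and 49.2% of their summed FPKM in the wild type and 50.2% and 49.8% in the mutant. Others leaned to one gene, as with rplp2l over rplp2, where rplp2 held 17.1% and 18.2%. The pair of rpl37 was far more uneven, and its second entry, on chromosome 2, held 0.714% and 0.648%. The current names table gives that chromosome 2 entry as COA1, the symbol of a mitochondrial assembly factor, so its place among ribosomal proteins rests on the older symbol. The gene rpl7l1, a relative of rpl7, was at 82.2 and 77.9 FPKM, or 3.34% and 3.43% of the pair.

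Among pairs of abundant genes, those of rpl5 and rpl22 differed most in balance between the libraries. The gene rpl5a was at 1299 and 1433 FPKM and rpl5b at 1063 and 949 FPKM, so that rpl5a held 55.0% of the pair in siblings and 60.2% in mutants. Their sum hardly differed, at 2362 and 2382 FPKM. The gene rpl22l1 held 29.4% and 24.1% of its pair with rpl22, which was at 1090 and 995 FPKM. In mouse and zebrafish, rpl22 and rpl22l1 are known to have separate roles in blood cell development. Reads of closely similar paralogues can be assigned to either copy, so these shares are less certain than the sums.

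**Figure D4:**
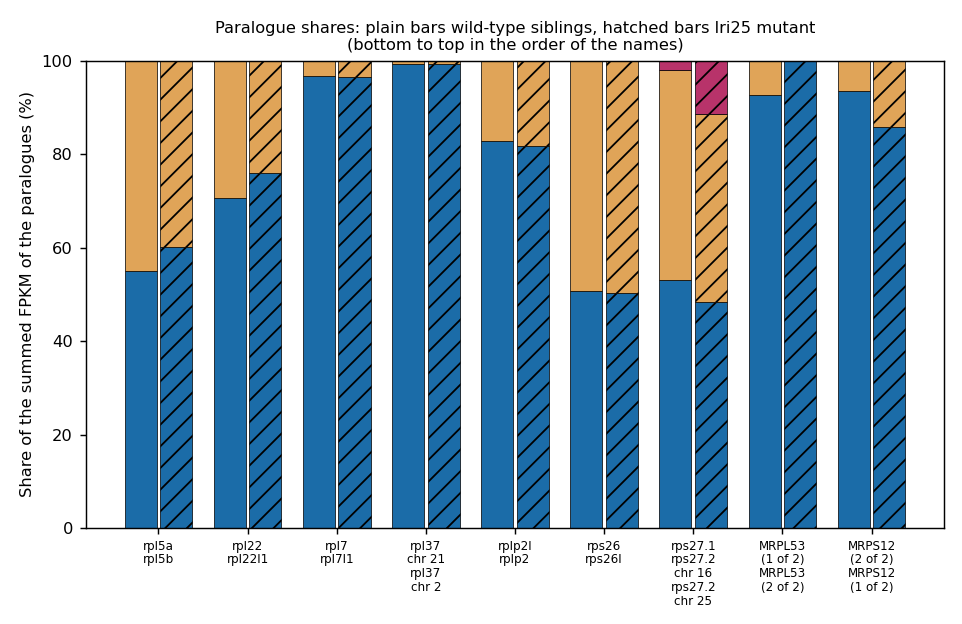
Share of the summed FPKM (percent) held by each gene of 9 paralogue families in the wild-type (plain) and mutant (hatched) library, stacked from bottom to top in the order of the names. The rps27.2 entry of chromosome 25 holds 1.88% and 11.4% of its family, and rpl5a 55.0% and 60.2% of the rpl5 pair.

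The cytosolic gene that differed most between the pools was the rps27.2 entry of chromosome 25 (ENSDARG00000090186, 34827002 to 34835479 in Zv9). It stood at 57.3 FPKM in siblings and 376 FPKM in mutants, 6.57-fold higher. No other cytosolic gene was 1.5-fold apart. The rps27.1 gene of chromosome 19 was at 1623 and 1601 FPKM and the other rps27.2 entry, on chromosome 16, at 1372 and 1328 FPKM. The family sum was therefore 3052 and 3304 FPKM. In the authors' deposited table this entry had a p of 0.00015 and a q of 0.0348, values that compare the 2 libraries only. It was the only one of 155 ribosomal protein genes tested in the authors' deposited table with a q below 0.05, a mark that 0.465% of all genes tested there carried. Among the other 154, the lowest p in the authors' deposited table was 0.2305 and the lowest q 0.996.

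Which gene that entry stands for is not settled by the files. The RefSeq gene table, which is of a later assembly, places rps27.2 on chromosome 16, rps27.1 on chromosome 19 and rps27l on chromosome 25, and the deposited table has no row named rps27l. Human RPS27L is known as a p53 target. The neighbours named in these sources were not the same, 5S_rRNA and roraa in the deposited table and LOC100535415 and dnaja in RefSeq, and the names table does not hold the entry's identifier. Without it, the 84 other cytosolic genes kept a median of -0.08, 72 of them were lower, and 0 were 1.5-fold apart.

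In the mitochondrial large subunit the most abundant genes were mrpl12, the stalk protein, at 71.1 FPKM in siblings and 62.4 FPKM in mutants, and mrpl32 at 60.7 and 67.2 FPKM. They were followed by MRPL52 at 42.9 and 63.1 FPKM, mrpl54 at 49.7 and 45.3 FPKM, and mrpl23, which lies at the exit tunnel, at 46.5 and 41.0 FPKM. The least abundant by the mean of both libraries were mrpl36 at 20.2 and 16.2 FPKM, mrpl9 at 16.8 and 16.6 FPKM, mrpl46 at 14.2 and 11.2 FPKM, mrpl1 at 13.5 and 10.8 FPKM and MRPL53 (2 of 2), at 1.59 FPKM in the wild type and listed at 0 in the mutant. In siblings alone mrpl24, at 15.3 FPKM, was lower than mrpl36 and mrpl9.

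The small subunit was led by MRPS36 at 67.6 and 84.9 FPKM, mrps21 at 49.1 and 51.0 FPKM, mrps25 at 37.9 and 45.6 FPKM, mrps18c at 37.9 and 40.7 FPKM and mrps14 at 36.6 and 37.8 FPKM, each higher in the mutant library. The names table gives the MRPS36 entry as kgd4, a subunit of the 2-oxoglutarate dehydrogenase complex to which that protein has been reassigned. The least abundant genes above 0 with small subunit symbols were mrps27 at 15.2 and 18.4 FPKM, mrps7 at 14.8 and 16.6 FPKM, and mrps9 at 13.8 and 16.1 FPKM. With them were mrps30, placed here by its symbol alone, at 16.9 and 12.1 FPKM, and MRPS12 (1 of 2). Listed at 0 in both libraries were mrps15, mrps16, the entry MRPS30 (1 of 2) and both entries of mrps22, which lie 2383 bases apart on chromosome 15. An exact 0 among FPKM values may come from an estimate that failed, so no fold is given for these genes or for MRPL53 (2 of 2).

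The 2 mitochondrial genes whose difference passed 1 on the log2 scale, a 2-fold difference, were both minor entries of a pair, where 13.2% of all genes tested were 2-fold apart in either direction. MRPS12 (1 of 2) was at 1.94 and 6.13 FPKM, 3.17-fold higher, and held 6.41% and 14.2% of the MRPS12 sum, whose main gene, a protein of the decoding centre, was at 28.3 and 37.2 FPKM. MRPL53 (2 of 2) is the entry listed at 0 in the mutant, and its partner was at 20.5 and 26.96 FPKM. How many fragments lie behind such low values is unknown. With a pseudocount of 5 FPKM both calls ended, as the difference went from 1.28 to 0.68 for MRPS12 (1 of 2) and from -1.37 to -0.40 for MRPL53 (2 of 2).

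Among genes at higher levels, mrpl22, a tunnel protein on chromosome 21 (35708358 to 35717872 in Zv9), was the one gene at least 1.5-fold higher, at 21.8 and 36.6 FPKM with a difference of 0.72. Just under that limit were mrpl17 at 25.9 and 38.3 FPKM, MRPL52, and mrpl24, also of the tunnel, at 15.3 and 22.6 FPKM. At least 1.5-fold lower were mrps28 (chromosome 22, 26881456 to 26882110), at 33.7 and 20.2 FPKM with -0.71, mrpl43, at 28.9 and 17.7 FPKM with -0.68, and mrpl41, at 29.2 and 18.5 FPKM with -0.63. MRPL42 was at 43.6 and 29.1 FPKM with -0.57, and mrps5 and mrps30 each had -0.45. In the authors' deposited table none of these had a q below 0.05.

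By place in the mitochondrial ribosome, the 3 stalk genes mrpl10, mrpl11 and mrpl12 were all lower in the mutant library, with a median of -0.17. The 6 tunnel genes were divided, 3 lower and 3 higher, between -0.36 for mrpl39 and 0.72 for mrpl22, with a median of 0.14. The central protuberance, which in animals is built partly of proteins without bacterial kin, also had 3 of 6 lower, around 0.03. In the large subunit, 25 genes of families shared with bacteria had a median of -0.02 and 18 without bacterial kin -0.12. In the latter 3 genes were 1.5-fold lower, a share near the 16.0% of all genes, and 1 of them is MRPL53 (2 of 2), listed at 0 in the mutant. Among small subunit symbols the medians were 0.10 over 17 genes of bacterial families and 0.09 over 9 others, so they lay close together.

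Of listed ribosomal subunits and ribosome-bound proteins that the symbols do not cover, 3 of 4 cytosolic and 5 of 8 mitochondrial genes were lower in the mutant library. The mitochondrial list held oxa1l, which is not a subunit, at 30.68 and 30.73 FPKM. Over all genes tested 51.0% were lower, and lists this small cannot be told from that share. On the cytosolic side gnb2l1, which codes for the scaffold Rack1 on the small subunit, was at 1950 and 1816 FPKM and faua at 1314 and 1189 FPKM. The faua paralogue faub, at 12.8 and 7.86 FPKM, was the 1 gene of the 4 at least 1.5-fold lower, against 16.0% of all genes. The faub locus, like that of ICT1 below, is shared with other entries. The median of the 4 was -0.12. On the mitochondrial side 8 genes had a median of -0.14, against 0.01 for the mitochondrial ribosomal proteins by symbol, and none was 1.5-fold apart, from ICT1, the rescue factor built into the large subunit, at 4.602 and 3.23 FPKM, to dap3 of the small subunit at 20.4 and 30.02 FPKM.

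Ribosome biogenesis factors lay near 0 at the centre, and the median of a short RNA polymerase I list lay below it. Of 84 ribosome biogenesis genes, 46 were lower in the mutant library and the median was -0.05. Only pwp2h, of the small subunit processome, was 1.5-fold higher, at 9.89 and 16.7 FPKM, and 0 were 1.5-fold lower. Over all genes, 13.8% were that much higher and 16.0% that much lower. The lowest were mak16 at 54.4 and 37.2 FPKM, rsl24d1 at 365 and 258 FPKM, and pes at 50.4 and 35.4 FPKM. Of 11 genes of RNA polymerase I, which transcribes ribosomal RNA, and its factors, 8 were lower with a median of -0.25. Over all genes tested 51.0% were lower, and a list this small cannot be told from that share. The extremes there were cd3eap at 15.5 and 8.44 FPKM and znrd1, a subunit of the enzyme, at 8.15 and 23.6 FPKM. The loci of mak16, pwp2h and znrd1 are shared with other entries, so reads may have been divided there.

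Cytosolic translation factors, 59 genes, had a median of -0.03 with 2 genes at least 1.5-fold higher and 3 lower. Lowest were eef1a1a, an elongation factor gene, at 54.4 and 28.2 FPKM, and an eif3hb entry at 19.6 and 10.1 FPKM. The other eif3hb entry was at 9.41 and 8.29 FPKM. Highest were the btf3l4 entry ENSDARG00000070722, at 3.44 and 8.02 FPKM, and eif5a2, an elongation factor, at 188 and 283 FPKM. A second btf3l4 entry was at 1.15 and 0.889 FPKM. Of 26 regulators of TOR and of translation, 5 were at least 1.5-fold higher and 3 lower, against 13.8% and 16.0% of all genes, and the median was 0.13. The GTPase rheb, which activates TOR, was at 56.2 and 13.5 FPKM and the repressor eif4ebp3 at 137 and 74.9 FPKM. The TOR inhibitors ddit4 and sesn3 were at 69.6 and 140 FPKM and at 15.2 and 32.6 FPKM. The middle 50% of this list spanned -0.12 to 0.51, against -0.37 to 0.33 for all genes and -0.15 to -0.03 for cytosolic ribosomal proteins, which TOR is known to control mainly at translation.

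Lists of mitochondrial gene expression lay at lower levels, with list medians from 3.09 to 6.90 FPKM in siblings. Of 19 assembly factors of the mitochondrial ribosome, 13 were lower in the mutant library, against 51.0% of all genes, with a median of -0.13. At least 1.5-fold lower were 4, against 16.0% of all genes. They were led by mterfd1 at 13.6 and 6.32 FPKM and fastkd2 at 13.2 and 7.87 FPKM. A list this small cannot be told from the share of all genes. Mitochondrial translation factors had a median of 0.10 over 14 genes, and tufm, the elongation factor, was at 65.8 and 57.7 FPKM. Their extremes were mtrf1l at 4.33 and 1.83 FPKM and C12orf65 (1 of 2) at 1.81 and 7.05 FPKM. The list of 19 mitochondrial aminoacyl-tRNA synthetase genes also held GATC and qrsl1, which are not synthetases. Its median was 0.11, with 2 genes at least 1.5-fold higher and 3, GATC among them, lower, against 13.8% and 16.0% of all genes. The 9 genes of mitochondrial DNA transcription and copying also had 0.11, with polg at 1.03 and 3.18 FPKM and its partner polg2 at 5.79 and 3.09 FPKM. The loci of mterfd1, C12orf65 (1 of 2) and polg are shared with other entries.

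**Figure D5:**
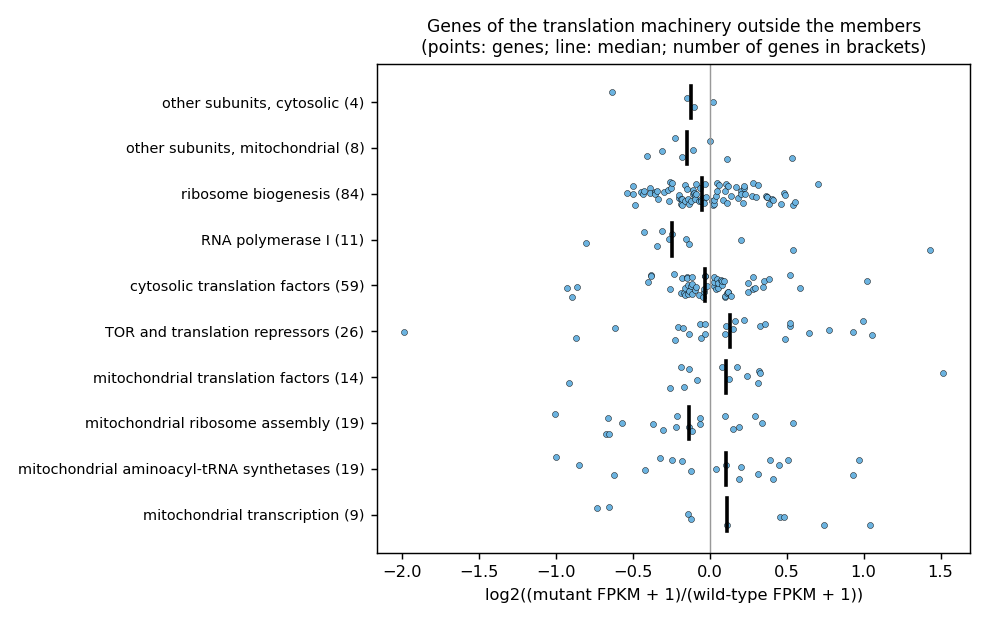
The log2 difference of each gene in 10 lists of the translation machinery that are not ribosomal protein symbols, with the median as a bar and the number of genes in brackets. Ribosome biogenesis genes and translation factors centre near 0 at -0.05 and -0.03, and rheb lies alone at -1.98.

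The make-up of the pools was read from 30 marker symbols of 10 cell types, of which 28 were found in 32 rows. All 10 cell types had a marker at 10 FPKM or more in both libraries, 0 markers were at 0, and 18 of the 32 rows were lower in the mutant library. Their summed level was 59842.8 FPKM in siblings and 63269.7 FPKM in mutants. The 3 markers each of neurons, lens and cartilage and the 2 of exocrine pancreas were lower, for example matn1 of cartilage at 157 and 98.5 FPKM and ctrb1 of pancreas at 2833 and 1238 FPKM. Of 6 enterocyte rows 5 were lower, with fabp2 at 591 and 288 FPKM. The 3 rows each of liver and heart were higher, with fabp10a of liver at 786 and 1160 FPKM and nppa of heart at 12.3 and 34.3 FPKM. Of the 3 red cell rows, alas2, at 11.3 and 11.8 FPKM, and an hbae1 row, at 58.9 and 61.4 FPKM, were only slightly higher. The other hbae1 row was at 24.5 and 35.5 FPKM. Fast muscle and skin each had 1 of 3 lower. Their part in the ribosomal protein levels was not tested.

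Overlap with other entries was common at cytosolic loci. A locus was shared by 33 cytosolic and 10 mitochondrial genes with another entry, and 25 of the cytosolic ones shared it with small nucleolar RNAs, which are known to be processed from introns of ribosomal protein genes. No mitochondrial gene did. Of the 64 small nucleolar RNA entries at these loci, 59 were listed at 0 in both libraries. Over the 53 cytosolic genes with a locus of their own, the median was -0.07 and 44, or 83.0%, were lower in the mutant library.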

How the data were processed

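Per the labels, total RNA of 20 pooled larvae per genotype was isolated on RNeasy Mini columns (Qiagen) and sequenced after a standard Illumina preparation. The submitters' processing notes list Zv9, CASAVA and Bowtie without versions, and the sources used here do not name the program behind the table. Levels are FPKM as deposited, per the file headers. The authors' p-value and q-value per gene compare the 2 libraries. Here only differences, log2((mutant FPKM + 1)/(wild-type FPKM + 1)), medians, shares and counts past 2-fold and 1.5-fold were computed, with a floor of 1 FPKM in at least 1 library (Python 3.11.15, numpy 2.4.6, pandas 2.3.3, tested on simulated data). No test was run.

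Genes were classed by symbol and named by rule: the 6 highest and 6 lowest differences per compartment, the 5 most and 5 least abundant genes per subunit class, stalk, rpsa, rpl5, rpl11, rps27a and paralogous genes, genes listed at 0 or past 2-fold, and up to 3 each way per list. Members and lists were chosen with earlier results of these data known, and groups by place in the ribosome after their values were seen. Identifiers of 138 of 162 members were in the names table, 123 with the same symbol. Positions are Zv9, 1-based, after 19 mitochondrial loci matched the reference only with 1 added to the start. Alternatives were other pseudocounts, floors and scalings, and leaving out shared loci, genes at 0 or the chromosome 25 rps27.2 entry. Some members covered by these rules are not reported here by name or value, but are in the counts and medians.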

Additional observations from a re-analysis of the deposited data

How the results depend on the processing

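With pseudocounts of 0.1 and 5 FPKM, no floor, a floor of 5 FPKM, a common sum or median, without shared loci or genes at 0, or with means in place of medians, the cytosolic difference ran from -0.08 to -0.05 and the mitochondrial one from 0.00 to 0.02. All 183 recomputed values of 24 named genes kept their direction, and 16 moved by more than 0.05. MRPL53 (2 of 2) ran from -4.08 to -0.40 and MRPS12 (1 of 2) from 0.68 to 1.61 over pseudocounts of 0.1 and 5 FPKM, and at 5 FPKM neither was 2-fold apart. The mean of the cytosolic small subunit was -0.0101 with, and -0.09 without, rps27.2 of chromosome 25. Without that entry, added after seeing the data, 0 cytosolic genes were 1.5-fold apart. With a pseudocount of 5 FPKM, 3 mitochondrial genes were 1.5-fold apart in place of 6, and without genes at 0 there were 5. Without shared loci, 44 of 53 cytosolic genes were below 0, fewer because fewer genes were compared. With a floor of 5 FPKM, the median of all 12758 genes was 0.0018 in place of -0.01. The scalings removed a log2 difference between the libraries of -0.011 in summed FPKM or -0.0081 in the median ratio. How far separate pools of the same genotype vary is unknown with 1 library each, so the cytosolic median of -0.08 has no error attached. No paired analysis was possible because each genotype had 1 library and no test was run.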

Other observations

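The 11 genes with rps6k symbols, which the symbol rule leaves out, had differences from -0.71 to 0.65. Their levels, at most 45.7 FPKM, were far below those of most cytosolic ribosomal proteins. The paralogues of S6 kinase 1 lay on opposite sides, with rps6kb1a at 20.9 FPKM in siblings and 33.3 FPKM in mutants and rps6kb1b at 45.7 and 29.6 FPKM. Of the other genes with these symbols, rps6ka4 was at 5.51 and 2.99 FPKM and rps6ka3a at 15.8 and 22.6 FPKM. Like rps6kb1b and rps6ka4, RPS6KA2 and rps6kl1 were at least 1.5-fold lower, and only rps6kb1a was that much higher.

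Ribosomal protein genes lay within 20 kb of each other at 5 places, and other genes between them were not looked for. The genes mrps11 and mrpl46 on chromosome 7 are 214 bases apart, and their differences were 0.20 and -0.31. On chromosome 19, mrpl24 and mrpl9 had 0.53 and -0.02, and on chromosome 1 mrpl16 and mrpl39 had -0.19 and -0.36. On chromosome 6, rplp2 and rps26l had 0.04 and -0.16. The last pair is mrps22, both entries listed at 0. Chromosome 19 held the most ribosomal protein genes, 16 of 162.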
